A study of Mus musculus with 32 samples.

Results

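The genes described here encode the proteins of the cytosolic ribosome. They were taken from the GENCODE M21 annotation of the mouse genome (mm10) by symbol: protein-coding genes named Rpl or Rps followed by a number, with the usual suffixes, together with Rplp0, Rplp1, Rplp2 and Rpsa, leaving out the Rps6k kinases. This rule used no measured value and gave 83 genes of the 25058 that were present in the files of all assays. By role they were 43 proteins of the large subunit, 31 of the small subunit, 3 of the stalk (Rplp0, Rplp1 and Rplp2) and 6 paralogues of other members (Rpl3l, Rpl7l1, Rpl10l, Rpl22l1, Rpl39l and Rps27l).

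The study followed the anti-cancer drug cisplatin in kidney, liver, lung and spleen of female C57BL/6J mice aged 6 or 7 months. Cisplatin at 10 mg/kg was injected into the peritoneum at ZT1 (ZT counts hours from lights on) and organs were collected at ZT5, which is 4 h later, although a sample label gives 2 h. Damage-seq mapped the cisplatin adducts still present in DNA, XR-seq sequenced the short DNA pieces that nucleotide excision repair cuts out, and RNA-seq of poly-A selected RNA measured transcripts. All 8 Damage-seq and 8 XR-seq libraries came from treated mice, so these assays have no untreated background, and the 16 RNA-seq libraries came from treated and saline-injected mice. There were 2 libraries in each of the 16 groups. The labels of control and cisplatin in lung and spleen RNA-seq were exchanged by the submitters after deposit, and the corrected labels were used. No label ties a library to an animal, so p-values measure the spread between these libraries, which may be partly technical. The 2 control libraries of lung, and likewise those of spleen, differed by little more than sampling noise (dispersion index 2.75 and 2.99, where the other pairs had 39.3 to 350) and were each summed to 1 control sample, which left 14 RNA-seq samples.

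Reads on genes numbered 1570404 to 6438357 per library in Damage-seq, 10656908 to 59761739 in XR-seq and 15612165 to 162261190 in RNA-seq. The ribosomal protein genes received 400 to 2730 of the Damage-seq reads, 8052 to 50978 of the XR-seq reads and 314830 to 5060717 of the RNA-seq reads, so single genes were measured least precisely in Damage-seq. Each organ's 6 marker genes were high in that organ: their summed RPKM (reads scaled by exon length and TMM-scaled library size) was 12240 or more in kidney, 51615 or more in liver, 80012 or more in lung and 8487 or more for the B cell genes of spleen, while no other organ exceeded 46.7, 242, 81.3 and 1218 for the respective list. In spleen the summed RPKM of 6 pancreas genes was 5.48 in the control sample and 813 and 1076 in the cisplatin samples. In whole organs, fewer cells of a type and less RNA per cell cannot be told apart.

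Ribosomal proteins are made in near-equal numbers and assembled with ribosomal RNA in the nucleolus, so their genes are usually expressed together at high levels in every cell. Many of their transcripts start within a run of pyrimidines, the 5′ terminal oligopyrimidine (TOP) tract, through which the mTOR pathway sets their translation. Free Rpl5 and Rpl11 can bind MDM2, which links faults in ribosome assembly to p53, and Rps27l is a known p53 target. Actively transcribed genes are repaired faster on the transcribed strand (TS) than on the non-transcribed strand (NTS), because a stalled RNA polymerase recruits the excision machinery.

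Start sites of members with and without certain pyrimidine words are shown, because a pyrimidine run at the start is what TOP messages share. Other pyrimidine runs, such as those of Rplp2, Rpl22l1 and Rps15a, are not marked by these words. Each sequence is from RefSeq (GRCm38.p6), covers 10 bases before the annotated start and 20 from it, and reads 5′ to 3′ along the gene. Capitals mark, on the gene's strand, the pyrimidine words CTTTCC, or with another base CTTTTC, or shifted CTCTTT, and on either strand CCGGAA (the core of ETS-type sites), whose reverse complement is written TTCCGG, or GCCATCTT (the reverse complement of AANATGGC, the YY1-type motif), and words that overlap run together in capitals.
Rps27, chr3:90213629-90213658, minus strand: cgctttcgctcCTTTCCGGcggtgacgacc
Rps27l, chr9:66946076-66946105, plus strand: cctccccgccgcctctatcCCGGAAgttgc
Rps6, chr4:86857348-86857377, minus strand: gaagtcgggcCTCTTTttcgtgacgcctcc
Rps15a, chr7:118116128-118116157, minus strand: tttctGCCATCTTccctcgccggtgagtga
Rpl28, chr7:4792955-4792984, plus strand: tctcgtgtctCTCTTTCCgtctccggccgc
Rpl11, chr4:136053374-136053403, minus strand: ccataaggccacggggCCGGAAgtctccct
Rpl5, chr5:107900518-107900547, plus strand: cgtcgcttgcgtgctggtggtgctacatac
Rpsa, chr9:120127756-120127785, plus strand: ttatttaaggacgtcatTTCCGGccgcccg
Rplp0, chr5:115559457-115559486, plus strand: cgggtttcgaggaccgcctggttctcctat
Rplp2, chr7:141447641-141447670, plus strand: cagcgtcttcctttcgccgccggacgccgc
Rpl22, chr4:152325716-152325745, plus strand: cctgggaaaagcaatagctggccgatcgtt
Rpl22l1, chr3:28805498-28805527, plus strand: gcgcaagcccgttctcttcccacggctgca
Rpl7l1, chr17:46782637-46782666, minus strand: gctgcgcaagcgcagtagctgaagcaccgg
Rpl39l, chr16:10170218-10170247, plus strand: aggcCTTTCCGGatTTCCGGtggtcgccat
Rpl3l, chr17:24727816-24727845, plus strand: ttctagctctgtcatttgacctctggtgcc

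Promoter windows, from 250 bases before to 50 after a start, were found for 63 of the members, which had 75 windows, and were compared with all 32851 windows. At least 1 of the 3 pyrimidine words stood within 50 bases of the start on the gene's strand in 52.0% of the members' windows and in 10.9% of all windows. Over the whole window and both strands, CCGGAA stood in 48.0% of the members' windows and 14.9% of all, AANATGGC in 22.7% and 6.05%, and GGGCGG (the Sp1-type GC box) in 45 of the 75 and in 35.7% of all. On the gene's strand, TATAAA was about as frequent in the members' windows (8.00%) as in all (8.32%). The muscle paralogue Rpl3l and the paralogues Rpl7l1 and Rpl22l1 had none of the capitals in the bases shown above. Nor did Rpl5, Rplp0, Rplp2 and Rpl22, which are not among the paralogues, whereas the paralogues Rps27l and Rpl39l had capitals there. Rpl22l1 has a pyrimidine run there that none of the 3 words match. In Rps27 the words CTTTCC and TTCCGG overlap, and Rps27l holds CCGGAA. These are matches of letters, counted motif by motif.

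Ribosomal protein genes were short, with a median length of 3368 bp against 14392 bp for all genes and a range of 828 to 31449 bp. GG dinucleotides, where cisplatin mainly binds, were nearly as dense on their TS as in all genes (59.7 and 58.5 per kb) but denser on their NTS (78.8 and 60.7 per kb). The members lay on 19 chromosomes, with 14 on chromosome 7. In 30 of them a snoRNA gene lies inside, and 23 are overlapped by a gene on the other strand. Among these 23 are Rpl5, Rpl7l1, Rpl18, Rpl22l1 and Rps2. Strand use in the RNA-seq counting is not stated, so RNA values of those 23 are uncertain.

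Processed pseudogenes copy the coding parts of many of these genes. Of all windows of 50 bases in GRCm38, a median of 90.4% per member occurred once in the genome over the whole gene, 82.5% over exons and 11.1% over coding exons, and 67 members had under 50% in their coding exons. No coding window of Rpsa, Rpl5, Rpl11, Rps27 or Rpl23a was unique, whereas all of those of Rpl3l and Rpl39l were. The authors kept only reads of high mapping quality, so RNA levels of members with many copies may be understated, and the part of this in the values was not tested. The median was thus higher over whole genes than over coding exons, and it is from whole genes that the Damage-seq and XR-seq reads were counted. XR-seq reads are shorter than 50 bases. For windows of 27 bases the median was 82.3% over whole genes (lowest member 46.7%), 73.0% over exons and 4.72% over coding exons.

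In RPKM on TMM-scaled library sizes spleen was the organ with the highest levels of these genes and kidney that with the lowest, whereas by the share of all reads the lowest library was one of liver. The median member had an RPKM of 68.5 and 69.3 in the kidney controls, 77.0 and 108 in the liver controls, 86.9 in the lung control and 197 in the spleen control. After cisplatin it was 94.9 and 98.6 in kidney, 274 and 230 in spleen, 87.4 and 93.2 in lung, and 93.0 and 225 in liver. The samples of spleen lay above those of kidney and lung without overlap, and a single liver sample, cisplatin replicate 2, reached into the range of spleen. In every sample 80 or 81 of the 83 members exceeded 1 RPKM, and the member median lay at percentile 96.6 to 99.5 among all genes. Reads on members made up 1.56% to 2.14% of the reads in kidney libraries, 1.04% to 2.35% in liver, 2.32% to 2.49% in lung and 4.79% to 6.93% in spleen, each with a 95% Wilson interval no wider than 0.0164 percentage points. In liver the 10 highest other genes took 15.3% to 21.6% of the reads.

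**Figure D1:**
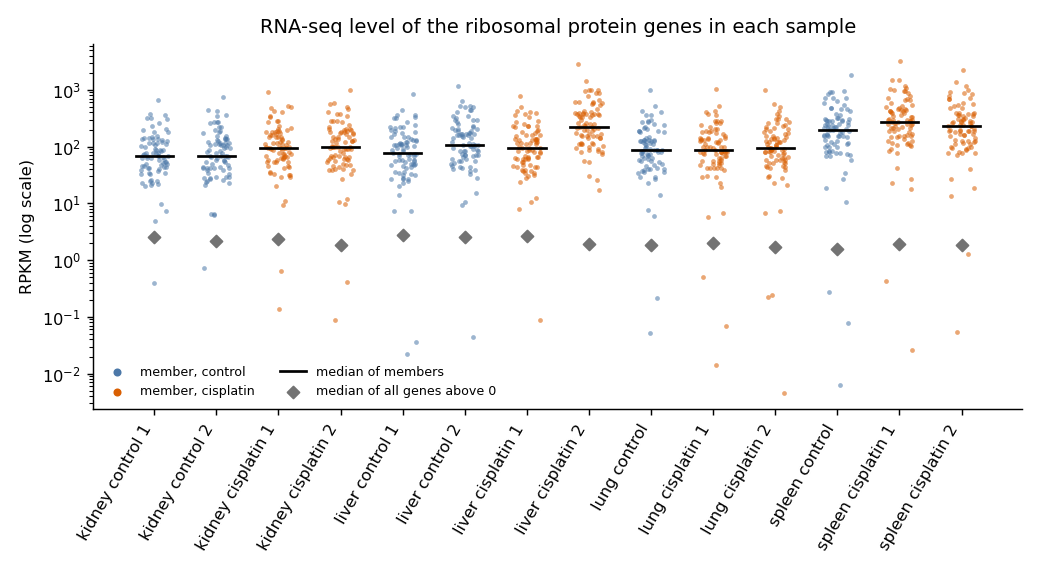
RNA level of the 83 ribosomal protein genes in RPKM (log axis) in each of the 14 RNA-seq samples. Points are genes (blue control, orange cisplatin), the black line is their median, which runs from 68.5 to 274, and the grey diamond is the median of all genes above 0, which stays between 1.6 and 2.72.

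Averaged over both arms, 77 members were highest in spleen, 54 lowest in kidney and 26 lowest in lung. Of the 82 members tested (Rpl10l had too few reads), 71 were higher in spleen than in the mean of the other 3 organs by edgeR's quasi-likelihood test at an adjusted p under 0.05, where 36.1% of all genes were, and 48 were lower in kidney, where 25.0% of all genes were. Their median log2 difference was 1.17 in spleen (0.14 over all genes) and -0.70 in kidney (-0.05 over all genes). Lung had 14 lower members (20.2% of all genes), with a median of -0.51 (0.01 over all genes). In liver 4 were higher (25.8% of all genes) and Rpl3l was lower (35.4% of all genes), with a median of 0.02 (-0.38 over all genes). Liver and lung depended on the scaling: with library totals in place of TMM factors, 77 members were lower in liver, with a median of -1.05, and in lung 2 were called in either direction, with a median of -0.01. Leaving out 1 library lowered the kidney calls from 49 in both directions to 19 without kidney control replicate 1 or kidney cisplatin replicate 1, to 27 without kidney control replicate 2 and to 15 without kidney cisplatin replicate 2. Lung went from 15 calls to 61 without liver cisplatin replicate 1, to 23 without liver cisplatin replicate 2, to 5 without lung cisplatin replicate 1 or replicate 2, and to 8 without kidney cisplatin replicate 1, kidney cisplatin replicate 2, liver control replicate 2 or spleen cisplatin replicate 1. Liver went from 5 to 19 without its cisplatin replicate 1 and to 31, of which 28 were lower, without its cisplatin replicate 2.

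Among the proteins of the stalk, which recruits the elongation factors to the ribosome, Rplp1 had the highest mean RPKM of all members in every organ, at 829 in kidney, 1406 in liver, 2449 in spleen and 1008 in lung. Rps15, a protein of the small-subunit head, was next in kidney, liver and lung and came after Rps3a1 in spleen, with 476, 709, 541 and 1209 in kidney, liver, lung and spleen. Rpl5 and Rpl11, which bind MDM2 when free, were far lower in RPKM, and both have coding exons without unique windows: in the same order Rpl5 had 37.8, 46.2, 40.9 and 93.4, and Rpl11 had 54.4, 83.5, 54.2 and 119. For Rpsa, a small-subunit protein that is also known as a laminin receptor, the means were 110, 203, 120 and 379. All 5 were highest in spleen. The order of genes within an organ depends on exon length, which merged the exons of all annotated transcripts.

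Most members shared this order of samples. Across the 14 samples, 69 of 82 members had a Pearson correlation over 0.9 with the member median on the log2 scale, with a median of 0.98, and the samples share organ and library. The member median comes from these same genes, and the share of all genes over 0.9 was not computed. The 3 members under 0.5 were paralogues: Rpl3l at -0.66, Rps27l at -0.09 and Rpl7l1 at 0.14. Of the core proteins Rps2, a small-subunit protein near the messenger RNA entry site, was the least alike, at 0.64, and was chosen after its values were seen. Its mean RPKM was 298 in kidney, 568 in liver, 413 in spleen and 181 in lung. Rps2 and Rpl10, a late-joining protein of the large subunit (mean 169 in kidney, 317 in liver, 270 in spleen and 160 in lung), were called higher in liver with Rpl7l1 and Rps27l.

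Rps27l is a near-copy of Rps27 and can take its place in the small subunit. Its RPKM was 144 and 114 in the kidney controls and 185 and 180 after cisplatin, 216 and 316 in the liver controls and 280 and 588 after cisplatin, 86.9 in the lung control and 85.2 and 95.1 after cisplatin, and 79.3 in the spleen control and 75.8 and 71.7 after cisplatin. Rps27 was highest in spleen, with 110 to 171 in kidney, 131 to 376 in liver, 219 to 259 in lung and 575 to 871 in spleen. The ratio of Rps27l to Rps27 was 1.56 to 1.86 in liver, 0.978 to 1.31 in kidney, 0.358 to 0.397 in lung and 0.0870 to 0.138 in spleen, and no 2 organs overlapped. Rps27l was 1.75 higher on the log2 scale in liver than in the other organs (edgeR adjusted p = 1.22e-05) and lower in spleen (log2 difference -1.12, edgeR adjusted p = 0.00233). No coding window of Rps27 is unique, so its level may be understated and the ratio overstated, which was not tested. Exon length merged the exons of all annotated transcripts. The size of a ratio between genes therefore also depends on the annotation, but its order between organs does not.

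Rpl7l1, which takes part in making the large subunit, had an RPKM of 22.5 to 54.3 over all samples, whereas its parent Rpl7, a structural protein of the large subunit, had 140 to 418. The ratio of Rpl7l1 to Rpl7 was 0.178 to 0.220 in kidney, 0.139 to 0.231 in liver, 0.113 to 0.127 in lung and 0.0650 to 0.0845 in spleen. Rpl7l1 was higher in liver than in the other organs by 0.68 on the log2 scale (edgeR adjusted p = 0.000502). Rpl7l1 and Rpl22l1 are each overlapped by a gene on the other strand, so their RNA values are uncertain. Rpl22l1, the paralogue of the RNA-binding protein Rpl22, had 6.38 to 20.6 in kidney, 12.3 to 29.8 in liver, 14.2 to 21.3 in lung and 34.3 to 41.4 in spleen, and its ratio to Rpl22 (0.113 to 0.274 over all samples) overlapped between organs, except liver (0.154 to 0.191) and spleen (0.192 to 0.244).

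Rpl3l, which replaces Rpl3 in striated muscle, was near 0 everywhere, with 0.398 to 0.721 RPKM in kidney, 0 to 0.0864 in liver, 0.211 to 0.496 in lung and 0.0258 to 0.0780 in spleen, against 78.5 to 287 for Rpl3. It was the only member highest in kidney, and was lower in liver (log2 difference -2.35, edgeR adjusted p = 0.00947) and spleen (-1.63, adjusted p = 0.0339) and higher in lung (1.36, adjusted p = 0.0367). These levels rest on 0 to 84 reads per sample. Rpl39l, known from testis, had 0 to 4 reads per library in kidney, 0 in all 4 liver libraries, up to 40 in lung and up to 123 in spleen. Rpl10l, also a testis gene, had 0 or 1 read per library, so no level can be given.

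**Figure D2:**
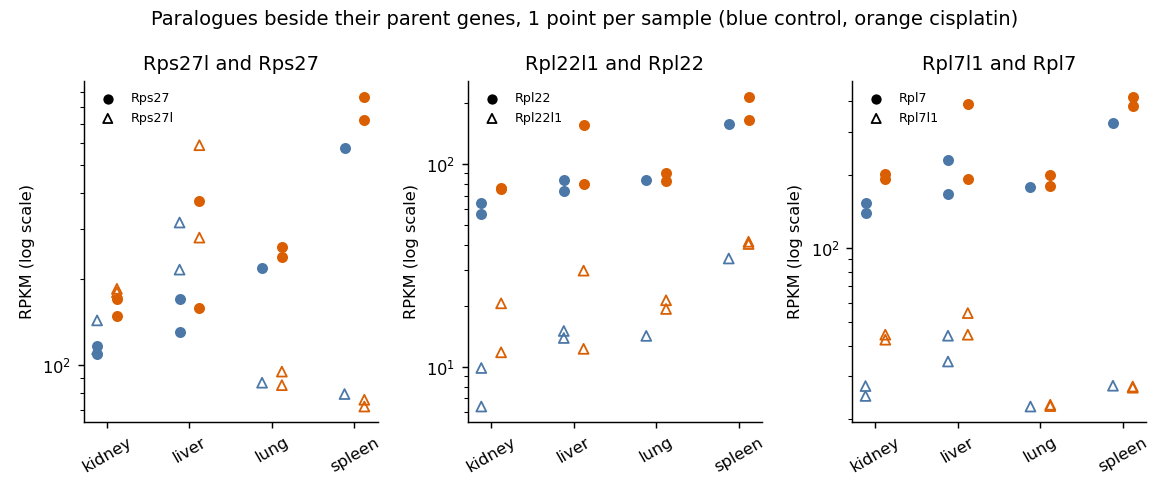
RNA level in RPKM (log axis) of 3 paralogues (triangles) and their parent genes (circles) in each of the 14 RNA-seq samples. Rps27l lies above Rps27 in liver (ratio 1.56 to 1.86) and below it in lung and spleen (0.0870 to 0.397), while Rpl22l1 and Rpl7l1 stay below their parents in all samples.

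The comparison of cisplatin with control in each organ asks whether treatment changed the transcripts of these genes within hours. No member was called in any organ by edgeR's quasi-likelihood test at an adjusted p under 0.05, where 6.32% of all genes in kidney, 4.81% in liver, 0.168% in spleen and 0.639% in lung were. In simulated counts this test recovered 0 of 50 genes changed 2-fold in kidney and 1 of 50 in lung. It recovered 22 of 50 genes changed 4-fold in each of these organs, so smaller changes can go uncalled. At an unadjusted p under 0.05, 4 members passed in kidney, 7 in liver, 0 in spleen and 0 in lung. Of all 19087 genes, 3821, 3482, 751 and 1773 passed in that order. DESeq2 called 1 member in kidney and 0 in the other 3 organs. Against a log2 fold change of 0.4, the limit in the study's methods, 0 members were called too (3.12%, 2.71%, 0.372% and 0.136% of all genes in kidney, liver, lung and spleen). The count at an unadjusted p was then 1 in kidney, 2 in liver, 0 in spleen and 0 in lung. Of all 19087 genes, 2806, 2518, 577 and 1414 passed in that order. DESeq2 called 0 members in each organ.

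In kidney the fitted log2 fold change was above 0 for 81 of 82 members, with a median of 0.49 against 0.00 over all genes and a median SE of 0.40. Both cisplatin samples lay above both controls for 78 members, where 25.4% of all genes did so. The median was 0.49 for the large subunit, 0.49 for the small subunit, 0.44 for the stalk and 0.73 for the paralogues. The smallest adjusted p belonged to Rpl7l1, whose RPKM was 24.9 and 27.3 in the controls and 42.3 and 44.3 after cisplatin (log2 fold change 0.73, SE 0.21, adjusted p = 0.0656). For Rpl22l1 the values were 9.88 and 6.38 in the controls and 20.6 and 11.8 after cisplatin (0.99, SE 0.39, adjusted p = 0.184). The groups of both genes did not overlap, and neither passed the test. Both genes are overlapped by a gene on the other strand, so these RNA values are uncertain. Without liver cisplatin replicate 1, or without liver cisplatin replicate 2, the shared fit called 2 members in kidney.

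In liver the 2 cisplatin libraries stood apart from each other. The median log2 fold change was 0.74 (0.00 over all genes), and 81 of 82 members were above 0, but both cisplatin samples lay above both controls for 3 members, where 16.5% of all genes did so. Without cisplatin replicate 1 the median was 1.26 and 67 members were called, with 47 called past 0.4, and without cisplatin replicate 2 it was -0.07 with no member called. Rplp1 shows this, with 838 and 1171 RPKM in the controls and 792 and 2821 after cisplatin. The smallest adjusted p was that of Rpl13a, a large-subunit protein whose introns are known to host snoRNAs (log2 fold change 0.77, SE 0.26, adjusted p = 0.135).

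In lung the median was 0.08 (0.01 over all genes, median SE 0.49). The cisplatin samples lay above the summed control for 55 members, where 37.2% of all genes did, and below it for 13, where 39.3% did. The smallest adjusted p was 0.902. The T cell markers had a summed RPKM of 48.6 in the lung control and 12.6 to 14.4 after cisplatin, and the erythroid markers 7872 and 3385 to 4291. In spleen the median was 0.35 (-0.04 over all genes), the cisplatin samples lay above the summed control for 73 members (29.6% of all genes) and below it for 4 (42.2%), and the smallest adjusted p was 1. Beside the pancreas genes, the B cell markers differed there (15686 in the control, 8487 to 11436 after cisplatin), while the T cell markers had 216 and 246 to 261. The erythroid markers had 11087 in the spleen control and 7649 to 20337 after cisplatin. The part of these other cells in the values of lung and spleen was not tested. With RLE in place of TMM scaling, log2 fold changes of all genes in spleen shift up by 0.11.

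Rpl5 and Rpl11 had log2 fold changes of 0.55 (SE 0.35) and 0.58 (SE 0.39) in kidney, 0.92 (SE 0.35) and 0.87 (SE 0.39) in liver, 0.28 (SE 0.43) and 0.36 (SE 0.48) in lung, and 0.27 (SE 0.43) and 0.40 (SE 0.48) in spleen. Rps27l had 0.50 (SE 0.33) in kidney, 0.71 (SE 0.33) in liver, -0.11 in spleen and 0.05 in lung, near the values of Rps27 in kidney (0.50) and liver (0.83). The stalk genes Rplp0, Rplp1 and Rplp2 had 0.48, 0.44 and 0.36 in kidney, 0.35, 0.60 and 0.82 in spleen, -0.04, 0.02 and -0.17 in lung, and 0.56, 0.85 and 0.78 in liver. Rpsa had 0.41, 0.73, -0.10 and 0.40 in kidney, liver, lung and spleen. A difference of the response between organs was called for 0 of 82 members by edgeR's quasi-likelihood test, and for 0.194% of all genes. The smallest adjusted p was 0.750 and 0 members passed at an unadjusted p under 0.05, where 1607 of all 19087 genes did.

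Genes of related pathways were taken as lists. Of 30 factors of ribosome assembly, 11 rose in kidney (list median 0.69; 3.17% of all genes rose) and 5 in liver (0.54; 1.07% of all genes). Without 1 kidney library the kidney count was 3 (cisplatin replicate 1), 8 (cisplatin replicate 2), 8 (control replicate 1) or 4 (control replicate 2). The liver count was 0 without liver control replicate 1 or liver control replicate 2, 2 without liver cisplatin replicate 2 and 12 without liver cisplatin replicate 1. Leaving out 1 of these cisplatin libraries, which stood apart from each other, gave 17 in kidney. Nop56, a core protein of the box C/D snoRNPs, rose by 2.49 on the log2 scale in kidney (SE 0.27, edgeR adjusted p = 0.00102) and by 1.39 in liver (SE 0.26, adjusted p = 0.0134). Gnl3, the nucleolar GTPase nucleostemin, rose by 2.58 (SE 0.32, adjusted p = 0.00175) and 1.34 (SE 0.30, adjusted p = 0.0308). Tsr1, a small-subunit assembly factor, rose by 1.78 in kidney (SE 0.28, adjusted p = 0.00551), and Nip7, a large-subunit assembly factor, by 1.27 in liver (SE 0.22, adjusted p = 0.00916). In lung and spleen 0 of the 30 were called (medians -0.09 and -0.04), where 0.639% and 0.168% of all genes were. At an unadjusted p under 0.05, 0 of the 30 passed there, and 1773 and 751 of all 19087 genes did.

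The other lists had no called gene by edgeR in any organ. Of all genes, 6.32%, 4.81%, 0.639% and 0.168% were called in kidney, liver, lung and spleen. The cytosolic ribosomal proteins that the symbol rule misses, Fau, Rack1 and Rpl36al, had medians of 0.50, 0.63, -0.02 and 0.44 in kidney, liver, lung and spleen. The 12 translation factors with TOP messages had 0.33, 0.30, 0.04 and 0.10, with the largest kidney value in Tpt1 (0.57) and the largest liver value in Eef1d (0.80). The 76 proteins of the mitochondrial ribosome had 0.17, 0.41, -0.11 and 0.12, with 5, 7, 0 and 0 genes at an unadjusted p under 0.05. Of all 19087 genes, 3821, 3482, 1773 and 751 passed that limit. Mrps18b had the largest kidney value among the 76 (1.12, SE 0.33, adjusted p = 0.0720).

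In XR-seq, the question was how far excision repair favoured the transcribed strand of these genes. TS reads per GG were above NTS reads per GG in nearly all of them, and in none below at the threshold. Of the 81 members tested, edgeR's quasi-likelihood test called TS above NTS in 64 in kidney (52.7% of all genes), 35 in liver (48.0%), 59 in spleen (54.0%) and 64 in lung (55.3%). In all 4 organs 32 were called (42.5% of all genes), and in no organ 8 (38.3%). The median log2 TS over NTS was 3.82, 2.12, 3.97 and 3.66 in kidney, liver, lung and spleen, and 2.45, 1.83, 2.81 and 2.79 over all genes. Both libraries of an organ had TS above NTS in 74 members in kidney (64.8% of all genes), 74 in liver (69.3%), 77 in spleen (67.6%) and 77 in lung (70.0%). Leaving out a library lowered the calls in liver to 6 (without liver replicate 1) or 4 (without liver replicate 2), in lung to 35 and 36 (without lung replicate 1 and replicate 2) and in spleen to 36 (without spleen replicate 1).

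Of all reads on the members, 86.5% ± 0.94 (SD, n = 2) lay on the TS in kidney, 69.8% ± 3.02 in liver, 84.6% ± 0.18 in spleen and 87.3% ± 0.73 in lung. In the liver libraries the shares were 71.9% (95% Wilson interval 71.4% to 72.4%) and 67.6% (67% to 68.2%), while all genes together had 85.3% and 83.8% there. The member median of log2 TS over NTS exceeded that of all genes in 8 of 8 libraries (mean difference 0.88, SD 0.49), whereas the summed reads of members exceeded those of all genes in 3 of 8 (mean -0.20). TS reads were dense on the median member, at 39.6 and 49.4 RPM (reads scaled to library size) per 1000 GG in kidney, 22.7 and 19.1 in liver, 29.2 and 34.7 in spleen, and 38.0 and 40.2 in lung, against 9.86 to 13.4 for all genes. On the NTS the median member had 2.03 to 4.19, against 0.904 to 1.84 for all genes.

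**Figure D3:**
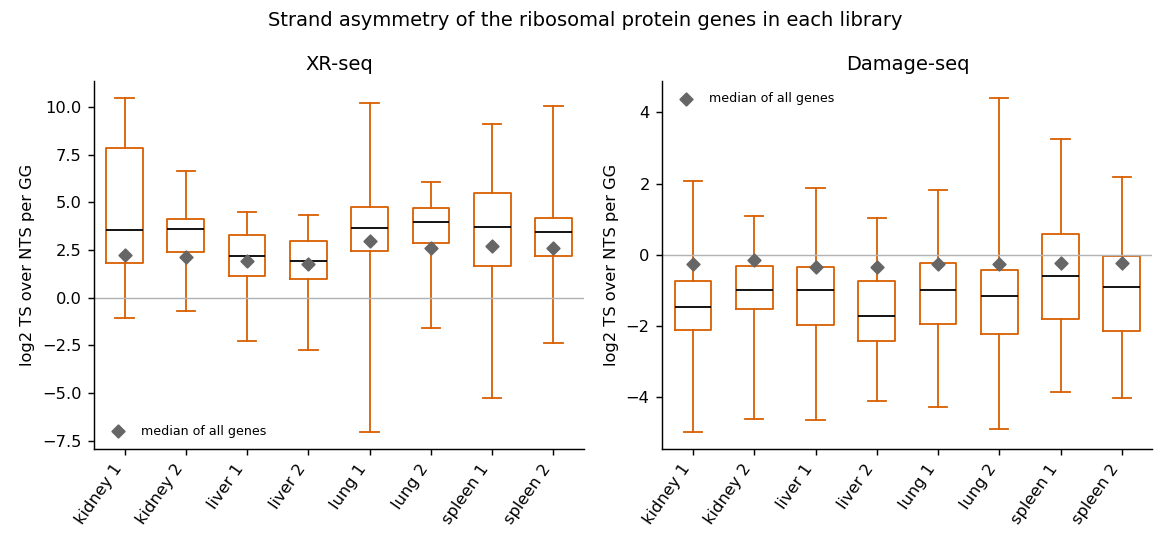
Log2 of TS over NTS reads per GG in each XR-seq and Damage-seq library; boxes show quartiles over the 83 ribosomal protein genes, whiskers reach the lowest and highest gene, and diamonds give the median of all genes. The member median lies above the diamond in 8 of 8 XR-seq libraries and below it in 8 of 8 Damage-seq libraries.

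By role, TS was called above NTS in kidney in 31 of 43 large-subunit genes (median 3.59), 29 of 31 small-subunit genes (4.48), 3 of 3 stalk genes and 1 of 4 paralogues. All 3 stalk genes were called in every organ: Rplp0 had a log2 TS over NTS of 3.44, 2.75, 3.85 and 3.99 in kidney, liver, lung and spleen, Rplp1 had 7.95, 3.71, 5.27 and 5.91, and Rplp2 had 3.25, 2.31, 3.50 and 4.36. Rpl11 was called in every organ as well (3.16, 1.21, 5.22 and 2.92), and Rpl5 in kidney and lung (2.09 and 2.88; 1.04 in liver and 0.78 in spleen did not pass). Rpl5 is overlapped by a gene on the other strand. Rps27l was called in liver (2.07), lung (3.50) and spleen (4.31) and had 1.79 in kidney (adjusted p = 0.0710), while Rps27 had 5.35, 2.40, 3.93 and 4.08.

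Among the highest mean log2 ratios over the 8 libraries were those of Rps7 (chr12:28630854-28635953) at 5.85 (SD 2.37) and Rpsa (chr9:120127689-120132369) at 5.79 (SD 2.30). Rpsa had 380 TS and 0 NTS reads in kidney replicate 1 and 476 and 11 in replicate 2, 274 and 35 then 203 and 26 in liver, 697 and 55 then 543 and 12 in lung, and 79 and 0 then 314 and 16 in spleen. The TS lay above the NTS in all 8 libraries, and its highest ratios were those of the 2 libraries with 0 NTS reads. Rps7, a small-subunit protein, had log2 ratios of 2.98 to 3.69 in liver and 4.23 to 9.11 in the other organs.

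The lowest mean ratios were those of Rpl3l at -2.36 (SD 2.87), Rps2 at -0.78 (SD 0.69) and Rpl18 at 0.26 (SD 0.63). Rpl3l (chr17:24727820-24736143, plus strand) and Rps2 (chr17:24718116-24721929, plus strand) lie close together on chromosome 17. Rpl3l had 117 TS and 37 NTS reads, then 76 and 59, in kidney, 57 and 319, then 49 and 390, in liver, 0 and 77, then 12 and 43, in lung, and 0 and 22, then 9 and 58, in spleen. Kidney, the organ with its highest RNA level, was the organ in which both libraries had TS above NTS. The fit gave 1.23 in kidney, -2.52 in liver, -3.56 in spleen and -3.63 in lung, with adjusted p from 0.0823 to 0.470, so no direction passed. Rps2, among the most expressed members, had a log2 ratio of 0.61 in 1 kidney library and -1.74 to -0.33 in the other 7, and it is overlapped by a gene on the other strand. Rpl18 (chr7:45715457-45720836), a large-subunit protein, had -1.05 to 0.87 and is also overlapped by a gene on the other strand.

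Members overlapped by a gene on the other strand had a lower median ratio. It was 2.31, 1.04, 3.23 and 2.21 in kidney, liver, lung and spleen (23 genes), against 4.37, 2.55, 4.26 and 4.23 in the other 58 tested. This difference was not tested. For members with a snoRNA gene inside, the medians were 4.25, 2.36, 3.87 and 3.40 (kidney, liver, lung, spleen). For members lacking such a gene they were 3.58, 1.97, 4.05 and 3.85. Host members were thus higher in kidney and liver but lower in the other organs, and this too was not tested.

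TS repair was next compared between organs for each gene, with TMM scaling of TS reads. In kidney 19 of 81 members were higher than in the mean of the other 3 organs (14.9% of all genes): 13 of the large subunit, 5 of the small subunit and Rpl3l, with a member median of 0.59. In liver 30 were lower (21.3% of all genes), 18 of the large subunit, 10 of the small subunit and the stalk genes Rplp0 (-0.89) and Rplp2 (-0.92), with a median of -0.76 against 0.12 over all genes. In spleen Rpl11 was lower (-0.46, SE 0.15, edgeR adjusted p = 0.0424; 13.3% of all genes were lower), with a median of 0.01. In lung 0 were called by edgeR in either direction (29.8% of all genes), with a median of 0.23. At an unadjusted p under 0.05, 1 member and 8115 of all 20675 genes passed there.

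Rpl37a, a zinc-finger protein of the large subunit, had TS densities of 117 and 112 RPM per 1000 GG in kidney, 30.3 and 19.7 in liver, 50.5 and 73.6 in spleen, and 53.1 and 73.4 in lung (log2 difference 1.32 for kidney and -1.51 for liver). Rps6, the small-subunit protein phosphorylated by S6 kinases, had 103 and 77.3 in kidney, 17.0 and 38.7 in spleen, 32.1 and 57.4 in lung, and 25.5 and 23.7 in liver (1.52 for kidney). Both kidney libraries lay above all others for these genes. Rpl37a and Rps6 were chosen after their values were seen. Rpl5 (0.76 in kidney, -1.21 in liver) and Rpsa (1.05, -1.0) were called in both organs. Rpl11 was called in kidney (0.69) and not in liver (-0.02), with densities of 26.6 and 30.8 in kidney, 15.1 and 17.2 in spleen, 18.3 and 19.4 in lung, and 19.6 and 18.2 in liver. Rpl3l was 3.77 higher in kidney on the log2 scale (SE 1.00, adjusted p = 0.0106), where its densities were 10.2 and 4.19, against 2.14 and 2.22 in liver, 0 and 0.451 in spleen, and 0 and 0.488 in lung.

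Single libraries moved these counts. Kidney had 11 calls without lung replicate 1, and liver had 47 without kidney replicate 1, 17 without liver replicate 1 and 8 without liver replicate 2. Lung had 9 calls without kidney replicate 2, 2 without spleen replicate 2 and 1 without kidney replicate 1 or lung replicate 2. Spleen had 6 without kidney replicate 2, 3 without its replicate 2, 2 without kidney replicate 1, and 0 without its replicate 1 or without any 1 library of liver or lung.

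**Figure D4:**
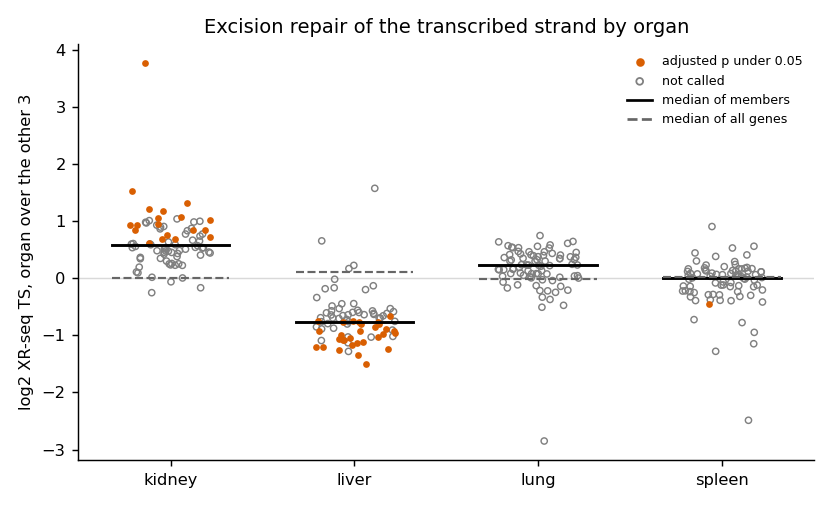
Log2 difference of XR-seq TS reads between each organ and the mean of the other 3 for the ribosomal protein genes; orange points passed an adjusted p under 0.05 and grey open points did not. Solid lines give the member median (0.59 in kidney, -0.76 in liver, 0.23 in lung, 0.01 in spleen) and dashed lines that of all genes.

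Damage-seq asked on which strand adducts remained. TS reads per GG lay below NTS reads per GG in most members, with a median log2 ratio of -1.28 in kidney, -1.62 in liver, -0.99 in spleen and -1.22 in lung, against -0.19, -0.33, -0.23 and -0.25 over all genes in that order. Of 81 members tested, 18 were called with TS below NTS in kidney (18.8% of all genes), 15 in liver (29.5%), 2 in spleen (11.8%) and 9 in lung (24.5%), and none with TS above. A total of 50 were called in no organ (62.0% of all genes) and 0 in all 4 (6.75%). The shares called were near or below those of all genes. Both libraries of an organ had TS below NTS in 63 members in kidney (52.1% of all genes), 62 in liver (55.8%), 40 in spleen (45.2%) and 52 in lung (50.7%). DESeq2 called 0 in kidney and spleen, 3 in liver and 1 in lung. The kidney calls became 0 without kidney replicate 1 and 5 without kidney replicate 2, and were 29 without lung replicate 1 or lung replicate 2, those in liver were 1 without liver replicate 1 and 6 without liver replicate 2, and those in spleen were 0 without either kidney or either spleen library and 1 without liver replicate 1. Lung had 6 to 10.

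Summed over the members, the share of Damage-seq reads on the TS was 28.0% ± 3.04 (SD, n = 2) in kidney, 26.2% ± 1.45 in liver, 32.2% ± 4.36 in spleen and 31.4% ± 0.88 in lung, against 43.9% to 47.1% for all genes. The widest interval of a library was that of spleen replicate 1, with 35.2% (95% Wilson interval 30.7% to 40.1%). After correction for GG, the log2 ratio of the summed members lay below that of all genes in 8 of 8 libraries (mean difference -0.73, SD 0.20), as did the member median (-0.84, SD 0.32). Intervals cover counting error only.

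Rps19, a small-subunit protein mutated in Diamond-Blackfan anaemia, had 7 TS and 72 NTS reads, then 12 and 35, in kidney, 1 and 20, then 1 and 11, in liver, 4 and 24, then 3 and 19, in lung, and 0 and 10, then 5 and 7, in spleen. The TS had fewer reads in all 8 libraries, and the fitted log2 ratio was -1.90 in kidney (edgeR adjusted p = 0.000889), -3.33 in liver (0.000588), -1.27 in spleen (0.343) and -2.06 in lung (0.00519). Its mean ratio of -2.14 (SD 1.25) and that of Rpl23a at -2.28 (SD 0.94, 94 reads in all) were among the lowest. At the other end were Rpl18 at 0.76 (SD 0.54), Rpl3l at 0.31 (SD 0.52) and Rpl39l at 0.22 (SD 0.66), none of which was called in any organ. Rpl3l and Rpl18 were thus among the lowest ratios in XR-seq and the highest in Damage-seq. Rpl18 is overlapped by a gene on the other strand, and the part of this in its ratios was not tested.

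The stalk gene Rplp0 had 7 TS and 42 NTS reads, then 12 and 27, in kidney, and its fitted ratio was -1.59, -2.08, -1.87 and -0.93 in kidney, liver, lung and spleen. Rplp2 had -1.65, -2.27, -1.34 and -1.76, and Rplp1 had 12 reads in all and was not tested. Rpl5, which is overlapped by a gene on the other strand, had -2.13, -2.02, -1.63 and -2.82. Rpl11, a gene of 25164 bp, had -0.41, 0.08, -0.20 and -0.17.

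Differences in Damage-seq reads between organs were few. On the TS, edgeR called 0 of 51 members (28.3% of all genes), with the smallest adjusted p in Rpl39 (0.0621). At an unadjusted p under 0.05, 8 members and 8574 of all 21960 genes passed on this strand. On the NTS 3 of 80 were called (16.5% of all genes): Rpl3 (adjusted p = 0.00151), Rpl13a (0.00536) and Rps10 (0.0474). On the NTS 15 members and 6519 of all 22013 genes had an unadjusted p under 0.05. Rpl13a had NTS densities of 26.6 and 24 RPM per 1000 GG in kidney, 5.48 and 8.76 in liver, 9.13 and 9.52 in spleen, and 14.7 and 12.8 in lung. For Rpl3, the protein at the peptidyl transferase centre, they were 12.2 and 11.3, 4.61 and 4.14, 2.88 and 4.50, and 5.06 and 6.41 in that order. Kidney libraries were the highest for both genes. The NTS calls became 0 without kidney replicate 1, 1 without liver replicate 1, 6 without lung replicate 1 and 5 without lung replicate 2, and the TS calls 1 without liver replicate 1 or spleen replicate 2, 2 without lung replicate 1 and 3 without lung replicate 2.

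Across the 83 members within an organ, which share libraries and are not replicates, RNA level and XR-seq log2 TS over NTS had a Spearman correlation of 0.33 in kidney, 0.30 in liver, 0.30 in spleen and 0.31 in lung. For kidney, liver, lung and spleen it was 0.27, 0.13, 0.23 and 0.27 with the XR-seq TS density, and with the Damage-seq ratio -0.09, -0.16, -0.01 and 0.09. Gene length and the XR-seq ratio had -0.04, 0.00, 0.02 and -0.09. All of these rank correlations are weak. On the log2 scale the Pearson correlation of RNA level with the XR-seq TS density was 0.72, 0.68, 0.73 and 0.73 in kidney, liver, lung and spleen. With the XR-seq ratio it was 0.38, 0.35, 0.51 and 0.43, and with the Damage-seq ratio -0.24, -0.27, -0.11 and -0.03. All of these values include Rpl10l and Rpl39l, with 1 and 6 XR-seq reads in all, and Rpl3l, whose RNA level was near 0. The part of these 3 genes in the Pearson values was not tested, nor was the reason for the gap between both measures.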

How the data were processed

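Damage-seq and XR-seq reads were, per the study's methods, trimmed with cutadapt, aligned to mm10 with BWA, freed of duplicates with Picard, kept at a mapping quality over 20 and filtered for GG at the damage position, and RNA-seq reads were aligned with STAR and counted with featureCounts. Tool versions are not given in the sources used here. The authors deposited raw counts: reads per gene, split into TS and NTS, for Damage-seq and XR-seq, and reads per gene for RNA-seq. The study tested RNA-seq with DESeq2 and applied ComBat, which was not used here.

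From these counts, 16 blank lines were dropped. RNA-seq pairs with a dispersion index of 3 or below (lung control, spleen control) were summed, which left 14 samples in a single fit of 4 organs by arm. All fits ran over all genes with edgeR's quasi-likelihood test (TMM scaling, adjusted p by Benjamini-Hochberg, called under 0.05), and glmTreat tested against 0.4. The SE was the size of the log2 fold change over the square root of F. Strand tests took TS and NTS of each library as a block, with GG counts as offset. Genes needed at least 10 GG on the strand with more, any GG on the other, and at least 20 reads in total. Ratios of single libraries used a pseudocount of 0.5. Densities are RPM (on TMM-scaled library sizes) per 1000 GG. RPKM used the merged exon length of all annotated transcripts and TMM-scaled library sizes. Counts of libraries with one strand above the other used densities without a pseudocount. DESeq2, library totals, RLE scaling, a replicate block, separate fits, other filters and leaving out each library were the alternatives. Versions were R 4.3.3, edgeR 4.0.16, DESeq2 1.42.0, Python 3.11.15, numpy 2.4.6, pandas 2.3.3 and scipy 1.17.1. The fits were tested on simulated counts.

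Members, marker lists (kidney, liver, lung, spleen and B cells, T cells, erythroid, pancreas) and pathway lists (ribosome assembly, other cytosolic ribosomal proteins, translation factors of TOP messages, mitochondrial ribosome) were chosen with earlier results of these data known. Genes named by rule were the paralogues with their parents, Rpl5, Rpl11, the stalk genes, Rpsa, the 3 largest changes per list, and the 3 highest and 3 lowest mean strand ratios. In each organ it would also have named the 3 largest rises and falls among members called for RNA, of which there were none. Other names were chosen after their values were seen. Rps4l was not analysed here, and a few single-gene results are not reported here.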

Additional observations from a re-analysis of the deposited data

Results flagged for a closer look

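XR-seq strand preference was also compared between organs directly, by testing log2 TS over NTS of each organ against the mean of the other 3 in the strand fit, a test added after seeing the values of each organ. For liver, 18 members and 6076 of all 21665 genes had an unadjusted p under 0.05. The test called 7 of 81 members as lower in liver (12.3% of all genes), with a member median of -1.65 against -0.62 over all genes. Among them were Rpl31 (difference -3.84, SE 1.01, adjusted p = 0.0382), Rpl9 (-3.77, SE 0.82, adjusted p = 0.0198), Rpl11 (-2.55, SE 0.51, adjusted p = 0.0137), Rpl7l1 (-2.14, SE 0.59, adjusted p = 0.0445), Rps24 (-2.04, SE 0.56, adjusted p = 0.0444) and Rps10 (-1.98, SE 0.54, adjusted p = 0.0440), all by edgeR. Rpl31, a large-subunit protein near the exit of the nascent chain, had 237 TS and 1 NTS reads, then 413 and 65, in kidney, 273 and 754, then 223 and 656, in liver, 639 and 257, then 428 and 201, in lung, and 75 and 33, then 404 and 130, in spleen, so that only in the liver libraries was the NTS the higher strand. Of the 81 members, 77 had a difference below 0. Rpl7l1 and Rps10 are each overlapped by a gene on the other strand. The count was 0 without liver replicate 1 or liver replicate 2, 2 without lung replicate 1, 1 without lung replicate 2, 3 without spleen replicate 1, 12 without kidney replicate 1 and 27 without kidney replicate 2.

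In the same test 1 member was higher in lung, Rpl11 (2.79, SE 0.52, edgeR adjusted p = 0.0201; 8.04% of all genes were higher), and 1 was lower in spleen (1.40% of all genes). In kidney 0 were called by edgeR in either direction (5.98% of all genes). At an unadjusted p under 0.05, 6 members and 4400 of all 21665 genes passed there. The cause of these differences was not tested.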

How the results depend on the processing

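Of 140 alternatives besides leaving out a library, 112 stayed within 1.5 times the count reported and 28 did not; the cause was not tested. RNA response: with each lung and spleen library as a replicate, 1 member was called in kidney and 1 in liver; with a replicate block over all libraries, 9 in kidney, 1 past 0.4 there, and 18 in liver; with a separate fit, 4 in kidney; with DESeq2, 1 in kidney. RNA level: with each library as a replicate, 11 in liver and 45 in lung; with RLE, 8 in lung; with library totals, 78 in liver and 2 in lung; with the replicate block, 15 and 70. XR-seq TS by organ: with library totals, 42 in kidney and 48 in liver; with the replicate block, 0 in spleen; with no filter, 1 in lung. Damage-seq strands: with DESeq2, 0, 3, 1 and 0 in kidney, liver, lung and spleen; with no GG offset, 31, 23, 26 and 5; with at least 100 reads, 1 in spleen. Damage-seq NTS between organs: 5 with library totals. The replicate block changed no other call count by over 1.5 times.

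Leaving out 1 library gave these ranges of calls. RNA response: 0 to 2 in kidney, 0 to 67 in liver (0 to 47 past 0.4), 0 in lung and spleen and for the difference between organs. RNA level: 15 to 71 in kidney, 4 to 31 in liver, 5 to 61 in lung, 70 to 81 in spleen. XR-seq strands: 54 to 66, 4 to 51, 35 to 71 and 36 to 67 in kidney, liver, lung and spleen, and 0 to 27 for liver below the other 3, which was added after seeing the data. XR-seq TS by organ: 11 to 26, 8 to 47, 0 to 9 and 0 to 6. Damage-seq strands: 0 to 29, 1 to 19, 6 to 10 and 0 to 2, and between organs 0 to 3 on the TS and 0 to 6 on the NTS.

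Replicate numbers were not taken to pair libraries: the correlation over genes of the replicate differences in both arms was 0.286 in kidney, 0.189 in liver, 0.257 in spleen and 0.0580 in lung, each organ has 2 numbers only, and the labels tie no number to a batch. With 2 libraries per group, 1 library can decide a call. Damage-seq gave 400 to 2730 reads over all members, so a single short gene such as Rplp1, with 12 reads, could not be measured, and near-identical copies limit the RNA values.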
